A study of Mus musculus with 12 samples.

Results

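Rfx3, Rfx6, Glis3, Bach2 and Mlxipl are genes of transcription factors that act in pancreatic islets, and they were followed through all 12 libraries of the study as 5 of the 12643 genes measured. They were chosen by name, and each was represented by its RefSeq transcript with the highest total count over the libraries. The names were drawn up with the siRNA effects and the ratios of ribosome-bound to total RNA of these same libraries known. The counts of genes called, fold changes and p-values given here for the 5 genes are therefore a description of them and are no evidence about them as a group. All 5 were present in the tables, and none was removed by a filter on low counts.

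The libraries came from MIN6 cells, a line derived from a mouse insulinoma and used as a model of the beta cell. Cells at passage 29, grown in DMEM with high glucose, received by nucleofection either an siRNA named NT, the control, or an siRNA against Pdx1, the homeodomain factor that drives insulin gene expression, and were harvested 72 h later. In translating ribosome affinity purification (TRAP), ribosomes are pulled down together with the mRNAs they carry. For each siRNA there were libraries of total RNA and libraries of RNA from this pull-down. This gave 4 groups of 3 libraries: NT total RNA, Pdx1 siRNA total RNA, NT IP RNA and Pdx1 siRNA IP RNA, where IP is the RNA that came down with the ribosomes. All groups share the cell line, the passage, the medium and the nucleofection. The sources used here name neither the protein that carries the tag nor the sequence of either siRNA.

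RFX factors carry a winged-helix domain that binds the X-box, a motif found before many genes of the cilium. Rfx3 drives cilium formation and the maturation of beta cells, and Rfx6 directs the formation of islet endocrine cells in the embryo and keeps adult beta cells responsive to glucose. Glis3 is a Krüppel-like zinc finger factor that binds the insulin promoter, and its loss causes neonatal diabetes with thyroid disease. Bach2 is a repressor best known from B lymphocytes that pairs with small MAF proteins on antioxidant-type elements and competes there with activators such as NRF2. Mlxipl encodes ChREBP, which pairs with MLX and binds E-boxes of glycolytic and lipogenic genes when glucose metabolism is high. IP RNA is read here as RNA recovered with ribosomes, so the ratio of IP to total RNA is a measure of recovery and not of protein made.

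The genes lie at 4 places in the genome (build mm10, RefSeq annotation of GRCm38.p6). Rfx3 (chr19:27761721-28014669) and Glis3 (chr19:28258851-28680265) are neighbours on the minus strand of chromosome 19, with 244182 bases between them. Rfx6 (chr10:51677760-51730429), Bach2 (chr4:32238413-32586109) and Mlxipl (chr5:135089890-135139768) lie on the plus strand. None of the 5 had a near-identical copy among annotated transcripts. Of Bach2's exon bases 6.32% also belong to Bach2os, an antisense transcript, and since strand is not stated for the counting these reads cannot be told apart.

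Upstream sequences are shown for the genes on which the results turn: Rfx6 and Mlxipl, for which separate starts are described here, and Bach2, which changed most. Rfx3 and Bach2 also have other annotated starts. Only the starts in the promoter table used here were searched, which leaves out the upstream start of Rfx6, that of the row counted. A short Rfx3 stretch is added because it holds an RFX half-site. The first 4 are the 250 bases before an annotated RefSeq start of build GRCm38.p6, read 5′ to 3′ on the gene's strand, with capitals on any match to the motifs searched.
Rfx6, the more downstream start, chr10:51685268-51685517, plus strand: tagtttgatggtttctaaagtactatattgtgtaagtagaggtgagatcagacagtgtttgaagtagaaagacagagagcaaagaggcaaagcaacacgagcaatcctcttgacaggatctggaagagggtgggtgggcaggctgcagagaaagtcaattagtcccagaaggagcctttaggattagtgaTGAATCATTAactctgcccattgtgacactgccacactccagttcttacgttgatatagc
Mlxipl, the more downstream start, chr5:135106641-135106890, plus strand: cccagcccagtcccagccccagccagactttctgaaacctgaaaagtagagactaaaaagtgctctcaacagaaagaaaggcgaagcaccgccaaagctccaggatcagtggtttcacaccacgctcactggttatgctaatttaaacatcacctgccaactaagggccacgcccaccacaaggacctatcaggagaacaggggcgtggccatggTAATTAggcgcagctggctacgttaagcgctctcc
Mlxipl, the more upstream start, chr5:135089640-135089889, plus strand: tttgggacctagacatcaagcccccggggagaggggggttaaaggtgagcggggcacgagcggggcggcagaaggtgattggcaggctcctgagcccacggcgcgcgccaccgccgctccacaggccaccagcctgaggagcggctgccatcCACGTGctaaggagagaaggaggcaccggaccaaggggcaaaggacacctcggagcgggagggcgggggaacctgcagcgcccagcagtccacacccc
Bach2, chr4:32417185-32417434, plus strand: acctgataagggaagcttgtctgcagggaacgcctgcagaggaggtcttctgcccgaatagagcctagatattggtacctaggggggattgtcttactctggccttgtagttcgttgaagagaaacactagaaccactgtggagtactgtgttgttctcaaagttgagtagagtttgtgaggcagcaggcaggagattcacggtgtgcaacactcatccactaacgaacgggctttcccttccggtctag
Rfx3, 30 bases after its start, chr19:28011118-28011147, minus strand: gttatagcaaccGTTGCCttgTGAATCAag
The motifs were the E-box CACGTG, the ChREBP element (a pair of E-boxes with a spacer), the homeodomain cores TAATTA and TAATGA, the MAF or AP-1 type element TGANTCA, and the RFX half-sites GTTGCC and GTAACC, searched on both strands in windows of 300 bases, 250 before and 50 after the start. The capitals before Rfx6 join a TGANTCA match that begins 60 bases before the start with an overlapping TAATGA match on the other strand. Its window also held TAATTA and a GTTGCC half-site after the start, which are not in the stretch printed. Of the 2 Mlxipl starts, 17001 bases apart, the downstream one had TAATTA 35 bases before it and the upstream one had CACGTG 98 bases before it. The Rfx3 site holds a GTTGCC and a TGANTCA match side by side. Bach2 and Glis3 windows held no match. Over 32851 promoter windows of the same length, 7.15% held CACGTG, 5.29% TAATTA, 9.78% TAATGA, 7.81% TGANTCA, 12.51% GTTGCC and 6.99% GTAACC, while the ChREBP element was in 0%. A match says only that these letters are there.

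Libraries held 29430690 to 45806807 counts, and no label states that replicates are separate cultures. P-values here measure the scatter of these libraries, which could be technical. Levels are in CPM, the count of a gene scaled to the size of its library, with sizes adjusted by the TMM method. Pdx1 itself, the target of the siRNA, was at 118, 123 and 110 CPM in NT total RNA and at 47.6, 57.4 and 47.9 CPM with Pdx1 siRNA. It fell by 1.20 (SE 0.10) on the log2 scale in total RNA and by 1.27 (SE 0.10) in IP RNA (edgeR, adjusted p = 9.97e-08 and 4.28e-08). Of 10 beta-cell markers, a list that includes Pdx1 itself, 10 were measured, of which 2 rose and 4 fell in total RNA. In IP RNA 1 marker rose and 5 fell, and 0 and 4 with the term given below for 4 libraries. Over all genes 23.8% were called higher and 29.2% lower in total RNA, and 29.2% and 30.4% in IP RNA. With the term 2603 of 12643 genes were called higher and 2609 lower in IP RNA. The summed level of the 10 markers was mostly that of Ins2, Iapp and Ins1. It was 104789 to 115936 CPM in NT total RNA and 94556 to 100921 CPM after Pdx1 depletion, without overlap. In IP RNA the sums overlapped, at 205415 to 240051 CPM in the NT libraries and 186047 to 229829 CPM after Pdx1 depletion. Of 12 markers of other islet endocrine cells 6 were measured. All 6 were called higher in both fractions, and 5 in IP RNA with the term. Their summed level was 10766 to 13035 CPM in NT total RNA and 31497 to 35175 CPM with Pdx1 siRNA. Most of that sum was Ttr, at a mean of 10945 CPM in NT total RNA and 29482 CPM with Pdx1 siRNA. In IP RNA that sum was 19709 to 23901 CPM with NT siRNA and 61430 to 77530 CPM with Pdx1 siRNA. The 1 measured duct marker of 4, Krt7, was at 64.1 to 70.8 CPM in NT total RNA and 96.3 to 109 CPM after Pdx1 depletion. The acinar and stromal lists had 0 of 6 and 0 of 7 genes measured and are not analysed here. The part of these markers in the results below was not tested, and in bulk RNA fewer cells of a type and less RNA per cell cannot be told apart. NT IP replicate 3 and the 3 Pdx1 siRNA IP libraries stood apart from the other 8 at a ribosomal protein copy gene, Rpl32l, with 22 to 37 counts against 699 to 1726. Comparisons within IP RNA are therefore given with a term for these 4 libraries where that changes a call.

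**Figure D1:**
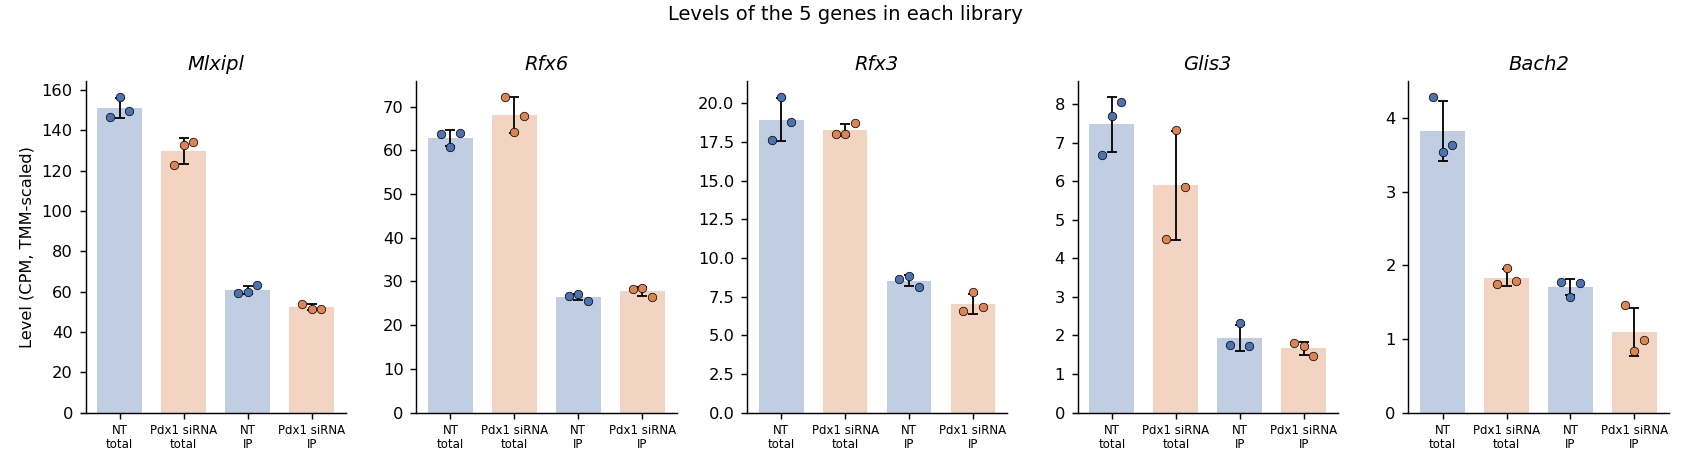
Level of each of the 5 genes (vertical axis, CPM on TMM-scaled library sizes, each panel with its own scale from 0) in the 4 groups. Points are libraries, bars are means and error bars are SD over 3 libraries. Under each siRNA every IP library of a gene sits below every total RNA library of it.

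Per length of transcript the genes kept 1 order in all 4 groups, Mlxipl above Rfx6, Rfx3, Glis3 and Bach2, and no library of one overlapped with the next. In NT total RNA the means were 41.7 ± 1.39 CPM per kb for Mlxipl, 18.1 ± 0.540 for Rfx6, 6.90 ± 0.507 for Rfx3, 0.995 ± 0.0951 for Glis3 and 0.45 ± 0.0481 for Bach2 (SD, n = 3). Mlxipl stood 2.30-fold above Rfx6, and Glis3 2.21-fold above Bach2. Rfx3's length is uncertain, since its 2 RefSeq rows, with GENCODE counterparts of 2743 and 9146 bases, differed by at most 4 counts in a library. With the longer length its level was 2.07 ± 0.152 CPM per kb, and its place in the order was the same.

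Bach2 was the gene of the 5 with the largest siRNA effect. In NT total RNA its level was 4.29, 3.54 and 3.63 CPM, and with Pdx1 siRNA it was 1.75, 1.96 and 1.79 CPM. The groups did not overlap, and the lowest NT library was well above the highest Pdx1 siRNA library. In IP RNA it was 1.77, 1.58 and 1.77 CPM with NT siRNA and 1.47, 0.830 and 0.987 CPM with Pdx1 siRNA, again without overlap, though replicate 1 of the Pdx1 siRNA libraries came close to the lowest NT library. Bach2 fell by 1.05 (SE 0.15) on the log2 scale in total RNA, 2.07-fold (edgeR, adjusted p = 2.67e-05), and by 0.69 (SE 0.19) in IP RNA (adjusted p = 0.00556). These levels rest on 30 to 185 counts per library. The difference between the effects, 0.36 (SE 0.24) on the log2 scale, did not pass the test (adjusted p = 0.47), and with 1 library left out it ran from 0.10 to 0.53.

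Mlxipl, the most abundant of the 5, was lower in both fractions by a small amount. Its level was 147, 157 and 150 CPM in NT total RNA and 123, 133 and 134 CPM with Pdx1 siRNA. In IP RNA it was 59.5, 60.0 and 63.1 CPM with NT siRNA and 53.9, 51.5 and 51.4 CPM with Pdx1 siRNA. In neither fraction did the groups overlap. Mlxipl fell by 0.22 (SE 0.07) on the log2 scale in total RNA (edgeR, adjusted p = 0.0127) and by 0.22 (SE 0.07) in IP RNA (adjusted p = 0.0112). The call in total RNA was lost when any single NT total library was left out, with adjusted p = 0.0541 without replicate 1, 0.134 without replicate 2 and 0.0791 without replicate 3, and in a fit of the total libraries alone (adjusted p = 0.0722).

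Rfx3 showed no called difference in total RNA and was lower in IP RNA. It was at 17.6, 20.4 and 18.8 CPM in NT total RNA and at 18.0, 18.0 and 18.7 CPM with Pdx1 siRNA, so that the Pdx1 siRNA libraries lay inside the NT range. In IP RNA it was at 8.66, 8.80 and 8.10 CPM with NT siRNA and at 6.54, 7.78 and 6.82 CPM with Pdx1 siRNA, without overlap. The difference was -0.05 (SE 0.07) on the log2 scale in total RNA (edgeR, adjusted p = 0.563), and Rfx3 fell by 0.27 (SE 0.09) in IP RNA (adjusted p = 0.0152). With a term for the 4 libraries that stood apart, the IP difference was -0.19 and the call was lost (adjusted p = 0.236), as it was without Pdx1 siRNA IP replicate 1 (adjusted p = 0.0538) or 3 (0.0571). Within those 4 libraries the NT one was at 8.10 CPM and the 3 with Pdx1 siRNA at 6.54 to 7.78 CPM. With 1 NT library the siRNA cannot be told from what sets these 4 apart, and this was not tested. The difference between the IP and total effects, -0.21 (SE 0.11), did not pass the test (adjusted p = 0.359).

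Rfx6, the RFX factor of islet endocrine cells, had a difference past the test in neither fraction. Its level was 63.8, 60.7 and 64.0 CPM in NT total RNA and 72.3, 64.2 and 67.9 CPM with Pdx1 siRNA, where the lowest Pdx1 siRNA library was just above the highest NT library. In IP RNA it was 26.7, 27.1 and 25.6 CPM with NT siRNA and 28.3, 28.4 and 26.5 CPM with Pdx1 siRNA, with overlap. The log2 differences were 0.12 (SE 0.07, edgeR, adjusted p = 0.152) and 0.07 (SE 0.07, adjusted p = 0.426).

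Glis3 was low in every group. In NT total RNA it was at 6.68, 7.70 and 8.06 CPM, and with Pdx1 siRNA at 4.51, 7.34 and 5.85 CPM, with replicate 2 inside the NT range. In IP RNA it was at 1.75, 2.32 and 1.74 CPM with NT siRNA and at 1.80, 1.72 and 1.48 CPM with Pdx1 siRNA, with overlap. The log2 differences were -0.33 (SE 0.15, edgeR, adjusted p = 0.0659) and -0.22 (SE 0.21, adjusted p = 0.381), and neither passed the test. The IP difference was -0.08 without NT IP replicate 2 and -0.07 with the term for the 4 libraries. Without Pdx1 siRNA total replicate 2 the difference in total RNA was -0.53 and passed it (adjusted p = 0.00763). Glis3 levels in IP RNA rest on 43 to 78 counts per library.

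The call rule was an adjusted p under 0.05. Of the 5 genes 2 were therefore lower in total RNA (Bach2 and Mlxipl) and 3 in IP RNA (those and Rfx3), and 0 were higher in either. DESeq2 gave the same calls. At an unadjusted p of 0.05 Glis3 was lower in total RNA as well, and again 0 were higher. Over all genes 29.2% were called lower and 23.8% higher in total RNA, and 30.4% and 29.2% in IP RNA. With the term for the 4 libraries 2609 genes were called lower and 2603 higher in IP RNA, against 3848 and 3694 without it. The balance in total RNA turned under upper-quartile scaling, with 3043 lower and 3432 higher, and without any single NT total library, with 2656 to 2881 lower and 2922 to 3063 higher. The libraries did not overlap for these same calls and for Rfx6, higher in total RNA. Over all genes 32.6% were lower without overlap in total RNA and 32.6% in IP RNA, and 26.1% were higher without overlap in total RNA. The 5 genes' median difference was -0.22 in both fractions on the log2 scale, beside -0.04 in total RNA and -0.01 in IP RNA over all genes. For 0 of the 5 did the siRNA effect differ between IP and total RNA by the interaction test (edgeR), and 0 of the 5 reached an unadjusted p of 0.05 there or passed it with DESeq2. Over all genes 29 (0.229%) passed it, 22 higher and 7 lower, a split of 22 and 20 under RLE scaling and 24 and 28 under upper-quartile scaling. The IP and total libraries of one siRNA may come from the same cultures, which the labels do not say.

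**Figure D2:**
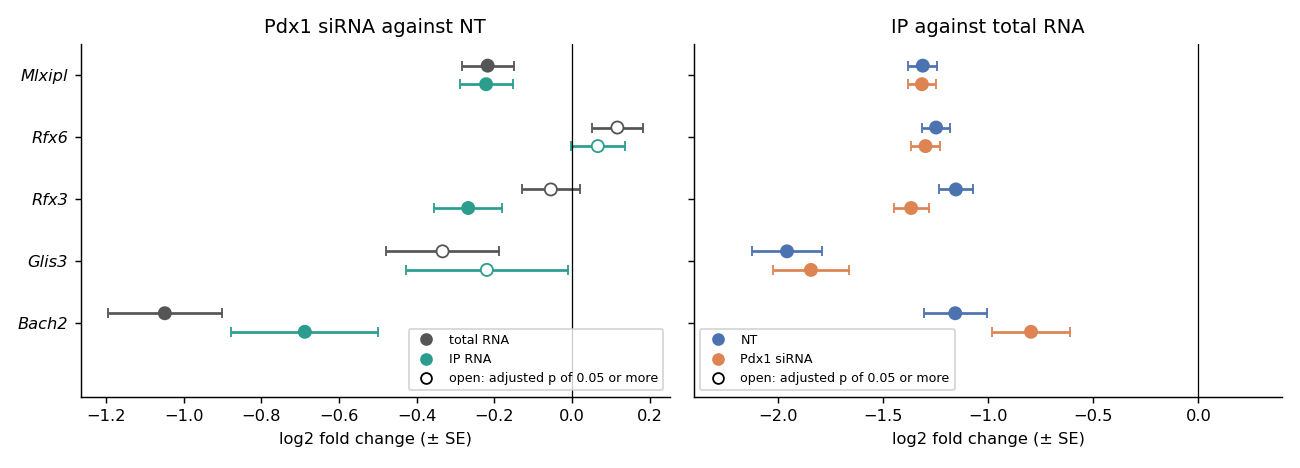
Log2 fold changes of the 5 genes with their standard errors (horizontal axis), for Pdx1 siRNA against NT in total and IP RNA (left) and for IP against total RNA under each siRNA (right). Open points did not pass an adjusted p of 0.05. On the left Bach2 lies farthest from 0 at -1.05 and -0.69, and on the right the points of all 5 genes lie between -1.96 and -0.80.

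All 5 mRNAs were under-represented in IP RNA, with no overlap between IP and total libraries under either siRNA, which held for 40.2% of all genes with NT siRNA and 37.9% with Pdx1 siRNA. With NT siRNA the log2 difference of IP from total RNA was -1.96 (SE 0.17) for Glis3, -1.31 (SE 0.07) for Mlxipl, -1.25 (SE 0.07) for Rfx6, -1.16 (SE 0.15) for Bach2 and -1.15 (SE 0.08) for Rfx3. Their edgeR adjusted p-values ran from 1.72e-09 for Mlxipl to 6.5e-06 for Bach2. With Pdx1 siRNA the differences were -1.84 (SE 0.18) for Glis3, -1.37 (SE 0.08) for Rfx3, -1.31 (SE 0.07) for Mlxipl, -1.30 (SE 0.07) for Rfx6 and -0.80 (SE 0.19) for Bach2, with adjusted p of 0.00116 or less. Glis3 was thus 3.88-fold lower in IP than in total RNA with NT siRNA and 3.58-fold lower with Pdx1 siRNA. Over all genes 35.9% were called lower in IP RNA with NT siRNA and 38.7% with Pdx1 siRNA, and the median difference was -0.02 under both. With the term for the 4 libraries 4286 genes were called lower with NT siRNA and 3198 with Pdx1 siRNA, against 4537 and 4897 without it. Between 0.7% (Glis3) and 4.9% (Bach2 and Rfx3) of genes had a lower ratio than the 5 genes with NT siRNA. With Pdx1 siRNA that share ran from 1.9% (Glis3) to 15.6% (Bach2). The 2 comparisons use separate libraries but share the fit's estimate of spread.

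The ratio of IP to total RNA fell with transcript length over all genes. Among the 5 genes it did not follow that order: with NT siRNA Bach2 was at -1.16, Rfx6 at -1.25 and Glis3 at -1.96. The 12524 genes with a length were split into 5 classes of like size. From the shortest class to the longest the median log2 ratio with NT siRNA was 0.58, 0.21, -0.03, -0.24 and -0.57. Rfx3 (at 2743 bases) and Rfx6 (3464 bases) lay in the middle class, Mlxipl (3622 bases) in the next, and Glis3 (7514 bases) and Bach2 (8493 bases) in the longest, where 75.7% of genes were called lower. At its longer length Rfx3 would fall in the longest class as well. All 5 ratios were below the median of their class with NT siRNA and also with Pdx1 siRNA, where the medians of the 3 upper classes were -0.04, -0.28 and -0.66. The part of length in these ratios was not tested.

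**Figure D3:**
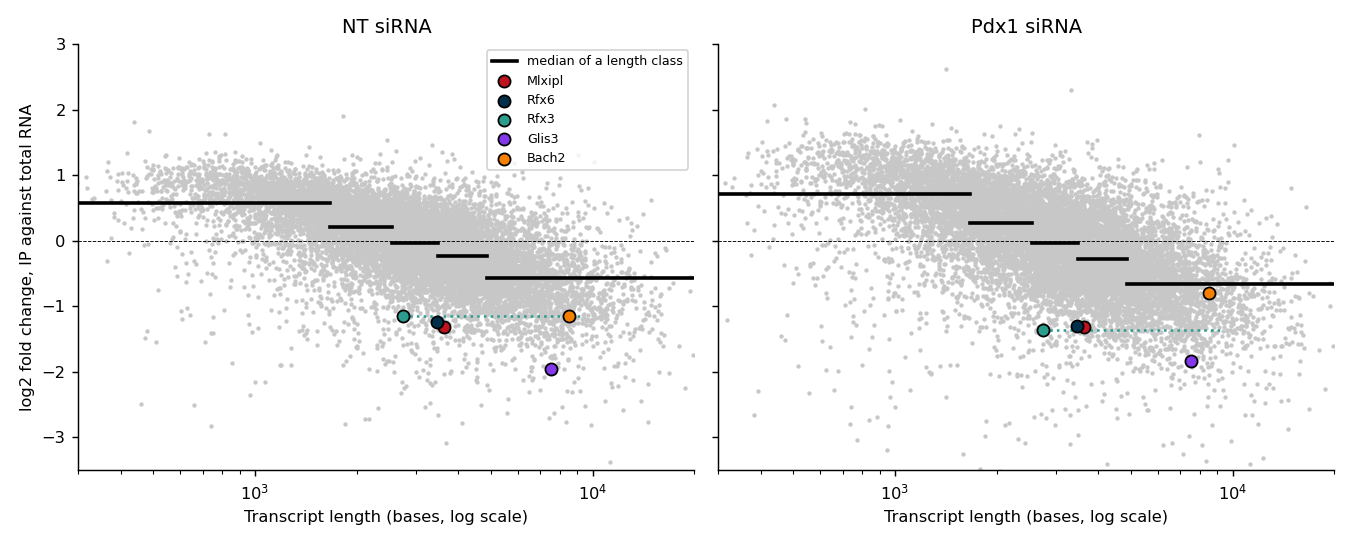
Log2 ratio of IP to total RNA (vertical axis) against transcript length in bases (log scale) for all genes with a length (grey), with NT siRNA (left) and Pdx1 siRNA (right). Black bars are the medians of 5 length classes, from 0.58 to -0.57 on the left, coloured points are the 5 genes, and the dotted line joins the 2 possible lengths of Rfx3. Each of the 5 genes lies below the bar of its class.

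Rfx6 has 2 RefSeq rows, which bear on where its transcripts start. The GENCODE counterpart of the row used, NM_001159389, begins at chr10:51677756-51678029. It has 4 exons upstream, 617 bases in all, that the counterpart of NM_177306 lacks. The latter starts in an exon of its own, chr10:51685518-51685761 (244 bases), just after the Rfx6 sequence printed above. The rows had nearly equal counts, so reads in exons that both share are taken here to be counted in both. These exons are those of the GENCODE counterparts, which need not match the annotation that was counted. On that reading the difference between the rows is the net share of reads in the upstream exons less those in the downstream first exon. It is given as a percentage of the longer row's count. That share was 9.16%, 9.35% and 10.5% in NT total RNA and 5.56%, 9.50% and 9.09% with Pdx1 siRNA. In IP RNA it was 7.44%, 9.23% and 8.21% in the NT libraries and 4.75%, 5.17% and 4.71% with Pdx1 siRNA. The IP groups did not overlap, while in total RNA 1 Pdx1 siRNA library was low and the other 2 lay in or next to the NT range. The means in IP RNA were 8.29% ± 0.898 and 4.88% ± 0.255 (SD, n = 3), a difference of -3.42 percentage points with a two-sided exact permutation p of 0.1, the smallest that 3 against 3 libraries allow (0.2 adjusted over the 2 comparisons). In total RNA the difference was -1.62 points (exact permutation p = 0.4). The differences rest on 32 to 84 counts per IP library, and the measure was chosen after its values were seen. NT IP replicate 3, which stood apart with the Pdx1 siRNA IP libraries at Rpl32l, was at 8.21%. That is 1 library, and the part in this share of what sets those libraries apart was not tested.

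**Figure D4:**
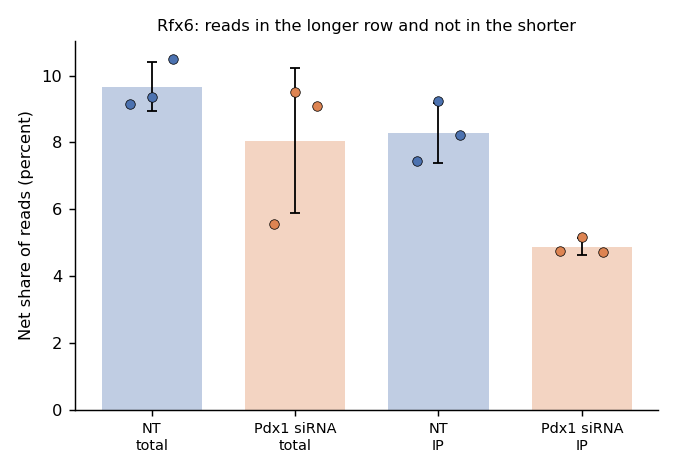
Net share of Rfx6 reads in the upstream exons (vertical axis, percent of the longer row's count) in the 4 groups. Points are libraries, bars means and error bars SD over 3 libraries. The 3 Pdx1 siRNA IP libraries sit between 4.71% and 5.17%, below the NT IP libraries at 7.44% to 9.23%, and the total RNA groups overlap.

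The relatives and partners of the 5 genes were read from lists drawn up by name. Each list count below is to be read beside the shares over all genes. These were 23.8% higher and 29.2% lower in total RNA, and 29.2% and 30.4% in IP RNA. List counts with the term for the 4 libraries have another background. With that term 2603 of 12643 genes were called higher and 2609 lower in IP RNA, against 3694 and 3848 without it. Medians over all genes were -0.04 and -0.01. In the RFX family and the RFX complex of MHC class II genes, 6 genes other than Rfx3 and Rfx6 were measured, of which 1 rose and 2 fell in total RNA. Rfx1, a broadly expressed relative, fell by 0.47 (SE 0.09) on the log2 scale in total RNA and Rfxap, a subunit of the complex, fell by 0.37 (SE 0.08). Rfx7, of whose exons 12.9% are shared with another gene, rose by 0.24 (SE 0.10). In IP RNA Rfxap alone of the 6 passed the test at -0.21, and it did not with the term for the 4 libraries, with which Rfx7 passed as higher. Rfx2, a close relative of Rfx3, had differences of 0.07 and 0.09 that passed in neither fraction. Median differences of these 6 genes were 0.06 in total and 0.13 in IP RNA.

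Of Glis3's relatives, hedgehog regulators, ubiquitin ligases and coactivators, 9 genes besides Glis3 were measured. Glis2, of the same family, rose by 0.30 (SE 0.08) on the log2 scale in total RNA and by 0.38 (SE 0.08) in IP RNA. Glis3 itself was at -0.33 and -0.22. Glis1 rose in IP RNA, by 0.35, and had a difference of 0.03 in total RNA. Sufu, which binds GLI factors and Glis3 in the cytoplasm, fell by 0.48 and 0.50, and Wwp1, a WW-domain ubiquitin ligase of which 25.2% matches other transcripts closely, fell by 0.42 and 0.54. The IP calls of Glis1, Sufu and Wwp1 were lost with the term for the 4 libraries. The coactivators Crebbp and Ep300, at 0.01 and 0.03 in total RNA, passed in neither fraction. Like Glis3 they were low in IP RNA with NT siRNA, at -1.94 and -1.42 on the log2 scale against total RNA. Their transcripts, of 10820 and 9566 bases, have lengths of the longest class above, where 75.7% of genes were called lower. The part of length was not tested.

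Bach1, the nearest relative of Bach2, fell with it. Its log2 difference was -0.57 (SE 0.08, edgeR, adjusted p = 3.14e-05) in total RNA and -0.64 (SE 0.09, adjusted p = 2.01e-05) in IP RNA. Of the 7 measured genes of the BACH, CNC and small MAF list other than Bach2, 2 rose and 4 fell in total RNA, and 2 rose and 3 fell in IP RNA. The small MAF partners went apart: Mafk rose by 0.38 and 0.61, Mafg fell by 0.30 and 0.22, and Maff fell by 0.42 in total RNA and was at -0.11 in IP RNA. Of the activators that use the same elements, Nfe2l1 rose by 0.47 and 0.46, and Nfe2l2, which encodes NRF2, was at -0.01 in total RNA and fell by 0.28 in IP RNA, a call lost with the term for the 4 libraries. Keap1, the inhibitor of NRF2 (16.1% of exon bases shared), fell by 0.21 in total RNA, not under upper-quartile scaling, and was at -0.06 in IP RNA.

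In the MLX and MAX network, 10 genes besides Mlxipl were measured, of which 2 rose and 3 fell in total RNA and 1 rose and 4 fell in IP RNA. Mlx, ChREBP's partner (19.6% of exon bases shared with another gene), had differences of -0.14 and -0.03 that did not pass, and Mlxip, its paralog MondoA, rose by 0.21 in total RNA and was at 0.14 in IP RNA, where it passed with the term for the 4 libraries. Of the MXD repressors Mxd4 (13.3% shared) rose by 0.70 and 1.13, Mxd3 fell by 1.09 and 1.00, and Mxi1 fell by 0.82 and 0.63, while Mxd1 was at -0.02 and 0.05. Myc fell by 0.69 and 0.85. With NT siRNA Mlx was higher in IP than in total RNA, by 0.41 (SE 0.09), where Mlxipl was lower by 1.31. Their lengths, 1965 and 3622 bases, are those of classes with median log2 ratios of 0.21 and -0.24, and the part of length was not tested.

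**Figure D5:**
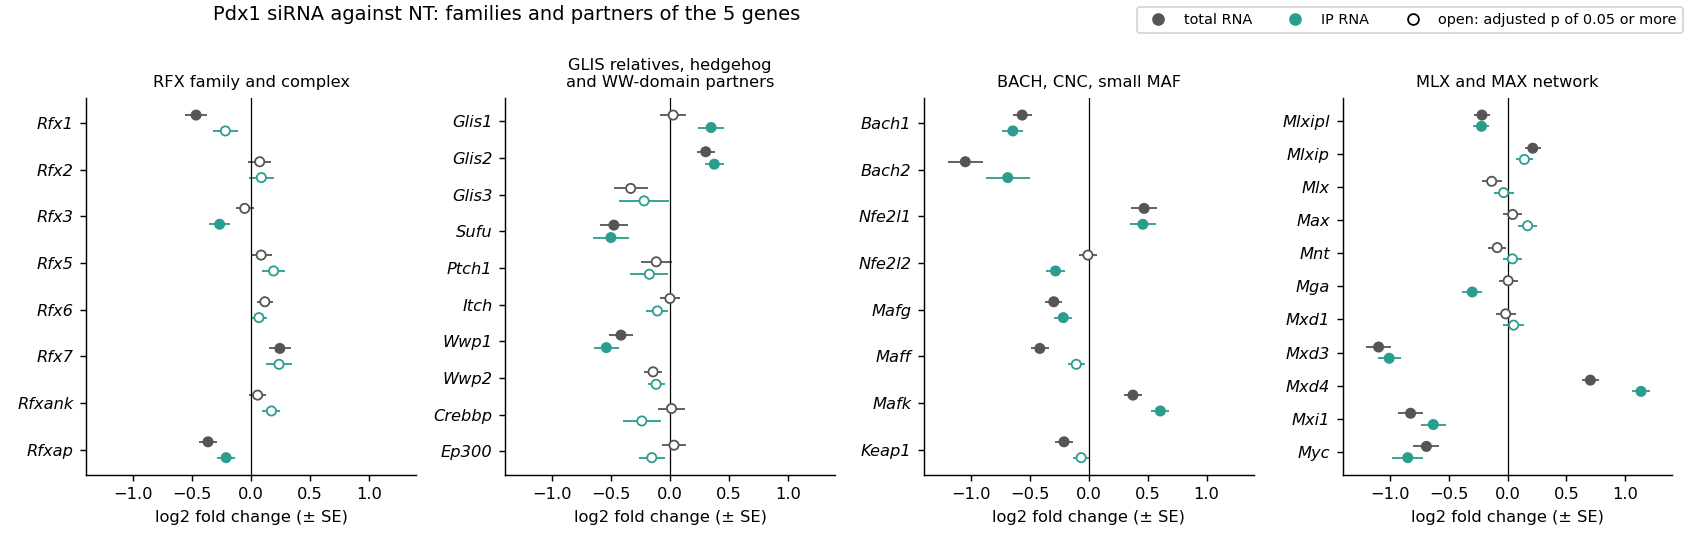
Log2 fold change of Pdx1 siRNA against NT with its standard error (horizontal axis) for the measured relatives and partners of the 5 genes, in total RNA (grey) and IP RNA (green). Filled points passed an adjusted p of 0.05. Bach1 and Bach2 lie to the left of 0 in both fractions, and in the MLX and MAX network the points run from Mxd3 at -1.09 to Mxd4 at 1.13.

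Cilium assembly genes are the class that RFX factors are best known to bind. Of 50 cilium assembly genes, 7 rose and 25 fell in total RNA, and 8 rose and 27 fell in IP RNA, with median differences of -0.20 and -0.24 on the log2 scale. The shares over all genes were 23.8% higher and 29.2% lower in total RNA, and 29.2% and 30.4% in IP RNA. Medians over all genes were -0.04 and -0.01. In total RNA 9 cilium genes rose and 20 fell under RLE scaling, and 9 and 17 under upper-quartile scaling. Of all 12643 genes 3208 were called higher and 3368 lower under RLE scaling, and 3432 and 3043 under upper-quartile scaling. With the term for the 4 libraries 7 cilium genes rose and 18 fell in IP RNA, beside 2603 and 2609 of all genes. B9d2, of the cilium's transition zone, fell by 0.52 and 0.24, in IP RNA not with that term. The intraflagellar transport gene Ift80 fell by 0.28 and 0.64, and Cep290 by 0.39 and 0.85. Against these, Ttc26 rose by 0.63 and 0.48, Tctn1 (27.5% of exon bases shared with another gene) by 0.48 and 0.77, and Ift57 by 0.33 and 0.57. Foxj1, the factor that acts beside RFX factors in motile cilia, was at 0.00 and 0.29 and did not pass.

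Of 15 genes tied to Rfx6 in beta cells, Mlxipl aside, 7 rose and 5 fell in each fraction. Gipr, the receptor for the incretin GIP, rose by 0.50 and 0.67. Cacna1a, a calcium channel subunit, rose by 0.57 and 0.44, and Kcnj11, of the ATP-sensitive potassium channel, by 0.27 and 0.50. Mafa, the factor of mature beta cells, fell by 0.94 and 0.40, the glucose transporter gene Slc2a2 by 0.33 and 0.99, and Tshz1 by 0.47 and 0.37. Ins2 had differences of -0.16 and 0.04 that did not pass. Ins1, named after its values were seen, was lower without overlap in both fractions. Its mean was 16964 CPM in NT total RNA and 12929 CPM with Pdx1 siRNA. In IP RNA the means were 31947 and 26244 CPM. With the term for the 4 libraries 3 rose and 4 fell in IP RNA among the 16 genes with Mlxipl. The IP calls of Cacna1a, Ins1 and Tshz1 were lost with it.

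Of 14 measured genes reported as targets or partners of Glis3, 2 rose and 6 fell in total RNA and 2 rose and 8 fell in IP RNA (5 with the term for the 4 libraries). This list shares Ins1, Ins2, Mafa and Slc2a2 with the one before, and it holds Pdx1, the siRNA's target. Pcsk2, a prohormone convertase, rose by 0.98 and 1.02. Mnx1, a homeodomain factor, fell by 0.61 and 0.48, and G6pc2, of islet glucose-6-phosphatase, was at -0.24 in total RNA and fell by 0.52 in IP RNA. Ccnd2, the cyclin gene reported as a Glis3 target, was at 0.25 and 0.21 and did not pass, although it passed as higher in both fractions with the term for the 4 libraries and in total RNA under RLE and upper-quartile scaling.

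Of 20 measured genes with BACH and NRF2 elements, 2 rose and 7 fell in total RNA, and 3 rose and 7 fell in IP RNA (2 and 5 with the term for the 4 libraries). Nqo1, a quinone reductase, fell by 0.94 and 1.21, and Txn1, thioredoxin, of which 29.3% matches other transcripts closely, fell by 0.68 and 0.61. Slc40a1, the iron exporter, rose by 0.46 and 0.49. Hmox1, the heme oxygenase gene known as a BACH target and named here after its values were seen, fell by 0.30 and 0.31, in total RNA not under RLE or upper-quartile scaling and in IP RNA not with the term for the 4 libraries. The list's median differences were -0.20 and -0.17.

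Of 31 measured genes reported as ChREBP targets, 10 rose and 9 fell in total RNA, and 10 rose and 12 fell in IP RNA, where the term for the 4 libraries left 9 and 6. Pklr, the pyruvate kinase gene that is its classic target, rose by 0.66 and 0.56, although 24.5% of its exons are shared with another gene. Rgs16, a regulator of G-protein signalling, rose by 0.99 and 1.05, Mid1ip1, which promotes lipogenesis, by 0.40 and 0.71, and Nrg1 by 0.38 and 0.83. Txnip, the thioredoxin-binding protein gene, named after its values were seen, rose by 0.51 and 0.56. The repressor gene Bhlhe40 fell by 0.94 and 0.95 and Cdk4 by 0.52 and 0.51, while Fasn, fatty acid synthase, was at -0.01 and -0.16 and did not pass. The list's median differences were -0.10 in total RNA and -0.16 in IP RNA. Exons are shared with other genes for Cdk4 (31.2% of bases), Mid1ip1 (26.9%), Txnip (21.4%) and Rgs16 (10.1%), whose reads the counting could split or double.

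Genes within 500 kb of the 5 were also read, a set chosen by position after the files were seen, without a check for copies or shared exons and without the term for the 4 libraries. Of 34 such genes, 7 rose and 10 fell in total RNA and 10 rose and 9 fell in IP RNA. The shares over all genes were 23.8% higher and 29.2% lower in total RNA, and 29.2% and 30.4% in IP RNA. Beside Bach2, Casp8ap2 (29361 bases away) fell by 0.79 (SE 0.08) and 1.02 (SE 0.09), Map3k7 fell by 0.33 and 0.32, and Ankrd6 rose by 1.60 and 1.50. Beside Mlxipl, Tbl2, the nearest at 9661 bases, was at 0.00 and -0.01 and did not pass, Baz1b fell by 0.43 and 0.61, and Mettl27 rose by 1.25 and 1.55. Beside Glis3, on the side away from Rfx3, Slc1a1 rose by 0.71 in total RNA and was at 0.09 in IP RNA.

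Likeness was read over genes whose mean level was 5 CPM or more. Those whose log2 levels over the 12 libraries were most like Rfx3 were Hook1, Uhrf1bp1l and Dennd4c (Pearson r of 0.996 to 0.997), and the most opposed was Mrpl17. For Rfx6 they were Ccnt2, Zfp445 and Srpk2, for Glis3 Rere, Ccnt1 and Rassf8, and for Mlxipl Ankhd1, Pogz and Cramp1l, each with r of 0.992 or more. Bach2 had lower values, 0.971 with Cntrob, 0.969 with Clk2 and 0.963 with Xntrpc. The 12 libraries include both IP and total RNA, correlations within a fraction were not computed, and these coefficients are a description only.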

How the data were processed

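The authors deposited 1 table of raw read counts per RefSeq transcript for each of 12 libraries. TopHat2, featureCounts and mm10 are named, without versions, per the submitters' processing notes. The sources used here do not give the strand setting or the treatment of reads with several matches. Of 17133 transcripts 295, with 0.577% to 0.834% of a library's counts, had no symbol in the RefSeq gene table of GRCm38.p6 and were left out. The lowest transcript total was 141 counts. Each gene took its transcript with the highest total. All libraries entered 1 quasi-likelihood fit in edgeR 4.0.16 (R 4.3.3) with TMM scaling and a mean per group. P-values were adjusted by Benjamini-Hochberg over 12643 genes at 0.05, and the SE is the log2 fold change divided by the root of F. Alternatives included DESeq2 1.42.0. Per-length levels used GENCODE M21 lengths. A copy meant 95% identity over 100 bases in minimap2 2.31. Upstream sequences are RefSeq's. Scripts were tested on simulated data. The 5 genes and all lists were chosen with earlier results of these data known. Named genes are the 5, Pdx1, any family member, and up to 4 called genes per target list with the smallest p in each siRNA comparison, plus well-known genes of a list that did not pass. Some genes that this rule names are not reported here. Reads are not independent molecules, so counting error is a lower limit.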

Additional observations from a re-analysis of the deposited data

How the results depend on the processing

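Of 410 values of the 5 genes under other settings, 395 kept their direction and their side of the threshold. The ratios of IP to total RNA of all 5 genes and the decreases of Bach2 kept theirs under every setting run. Bach2 ranged from -1.10 to -0.93 in total RNA and from -0.92 to -0.51 in IP RNA with 1 library left out. Mlxipl in total RNA ranged from -0.24 to -0.15 with 1 library left out and was -0.19 in a fit of the groups compared alone, where the call was lost. Rfx3 in IP RNA ranged from -0.35 to -0.23 and was -0.19 with the term for the 4 IP libraries that stood apart. Rfx3 in total RNA ranged from -0.0727 to 0.0437, the latter without NT total replicate 2. Glis3 in total RNA ranged from -0.53 to -0.18. With the replicate number as a block Glis3 in total RNA was -0.35 and passed (edgeR, adjusted p = 0.0214), and 0 other calls of the 5 genes changed. The labels share these numbers without saying that they pair libraries, and 10 of 18 same-numbered pairs correlated above 0.1 (-0.163 to 0.713). For the difference of the siRNA effects, Glis3 ranged from -0.04 to 0.31 and Mlxipl from -0.064 to 0.0229 with 1 library left out, with values of 0.0050, 0.0127, 0.0200 and 0.0229 for Mlxipl above 0, and none passed. The count of genes called there was 52 with upper-quartile factors, 327 with DESeq2, 54 without Ins1 and Ins2, 373 with the replicate block and 5 with the term for those 4 libraries. With 1 library left out it ran from 4 to 571, the highest without NT IP replicate 3. It was 2155 at an unadjusted p of 0.05. The cause was not tested. The difference of the effects needs all groups, so the fit of only the groups compared was not run for it. Counts were lowest for Bach2 (30 to 185 per library) and Glis3 (43 to 410).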
